A study of Sus scrofa with 70 samples.

Results

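Gene expression in the boar epididymis was compared with that in the vesicular gland, the prostate gland and the bulbourethral gland. The comparison used 24 RNA-seq libraries of the 70 samples in the series, 6 from the epididymis and 18 from the accessory glands, chosen by gland alone. The boars were 12 months old and belonged to 2 breeds, the Banna mini-pig inbred line (BMI) and the Diannan small-ear pig (DSE), from which BMI was derived by inbreeding. Each breed gave 3 libraries per gland, and no treatment or genetic change is named. The part of the epididymis that was sampled, and the boar behind each library, are not given in the sources used here, so p-values measure the spread between these libraries.

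The epididymis is the coiled duct in which sperm leaving the testis mature and are stored. Its epithelium secretes proteins that coat the sperm surface, protease inhibitors and antimicrobial beta-defensins, and it reabsorbs water and acidifies the lumen. The duct develops from the Wolffian duct, as the vesicular gland does, whereas the prostate and bulbourethral glands bud from the urogenital sinus. These 3 glands add the bulk of the seminal fluid, which in the boar holds spermadhesins from the vesicular gland and a mucin-rich gel from the bulbourethral gland.

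Levels are TPM, transcript abundances scaled to the same total in each library, summed over the transcripts of a gene and divided by a library size factor, called scaled TPM below. Differences are on the scale of log2(scaled TPM + 1), epididymis minus the mean of the 3 accessory glands with each gland weighted equally and breed as a covariate. This scale understates the differences of genes with low values. Genes were called at a limma p under 0.05, adjusted by Benjamini-Hochberg, where the difference was also at least 1 in size. The 10 most abundant genes held 16.1% ± 7.13 of the TPM in the epididymis (SD, n = 6) and 49.98% ± 12.3 in the accessory glands (SD, n = 18). This difference of -33.9 percentage points had an exact permutation p of 1.5e-05 over all splits into 6 and 18, two-sided, with every epididymis library below every accessory gland library. The test took the 18 accessory gland libraries as 1 group, although their shares differed by gland. The share ran from 9.94% to 26.6% in the epididymis, 49.9% to 67.6% in the vesicular gland, 42.4% to 58.8% in the prostate gland and 28.0% to 43.8% in the bulbourethral gland.

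**Figure D1:**
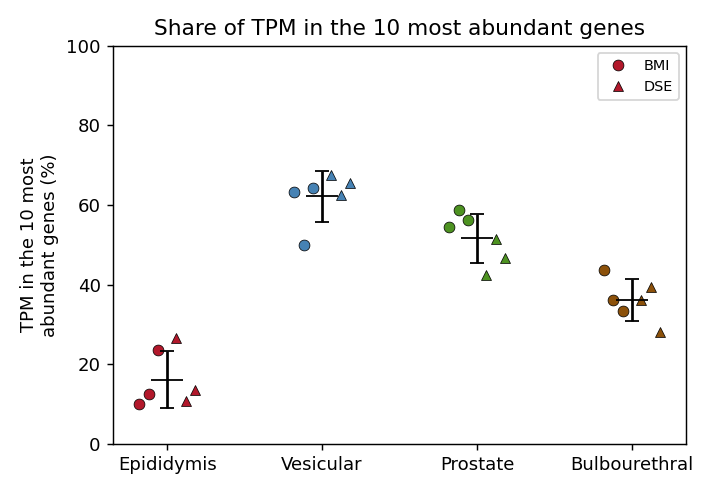
Share of TPM (%) held by the 10 most abundant genes of each library, by gland. Circles are BMI and triangles DSE libraries, and the black bars are the mean and SD of 6 libraries. The epididymis libraries lie between 9.94% and 26.6%, below all 18 accessory gland libraries.

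Before the results, 3 facts about the libraries matter. BMI prostate gland replicate 2 carried vesicular gland transcripts at high levels beside its prostate transcripts. Its level of PSP-I, a spermadhesin, was 215616 scaled TPM, against 1.29 to 9.22 in the other 5 prostate libraries and 215491 to 639702 in the vesicular gland. PAX2 was at 42.4 scaled TPM there and at most 0.0458 in the other 5, while HOXB13, listed at 0 in all libraries of the other 3 glands, was at 118 and the prostate protein MSMB at 112668 scaled TPM. The BMI prostate Iso-seq library likewise held 4029 full-length reads of PSP-I, and the DSE one held 0 of 336015 reads. Secondly, the epididymis libraries differed more among themselves than those of the other glands. The median over genes of the SD of log2 values within breed and gland was 0.45 in the epididymis and 0.26 to 0.28 in the accessory glands. Thirdly, smooth muscle and germ cell transcripts were higher in the epididymis, with values given at the end of the comparison.

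Of 16759 genes with at least 1 TPM in at least 3 of the 24 libraries, 1738 (10.4% of those tested) were called higher in the epididymis and 997 (5.95%) lower, or 16.3% in either direction. The median difference over all genes tested was 0.02. In 526 of the genes called higher, all 6 epididymis libraries lay above all 18 accessory gland libraries, a pattern that 3.63% of all genes tested had. In 238 of those called lower, all 6 lay below all 18, against 1.9% of all genes tested. Differences of at least 5 were found for 69 genes called higher and 12 called lower. With TPM as deposited, without size factors, 3466 genes were called higher and 478 lower, and the median difference over all genes rose to 0.50. All 1738 genes called higher and 476 of those called lower were called in the same direction with both scalings. The share of called genes that were higher was 63.5% with size factors and 87.9% without. Changes are therefore given relative to the median gene, and list counts are given with both scalings where they differ in direction.

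**Figure D2:**
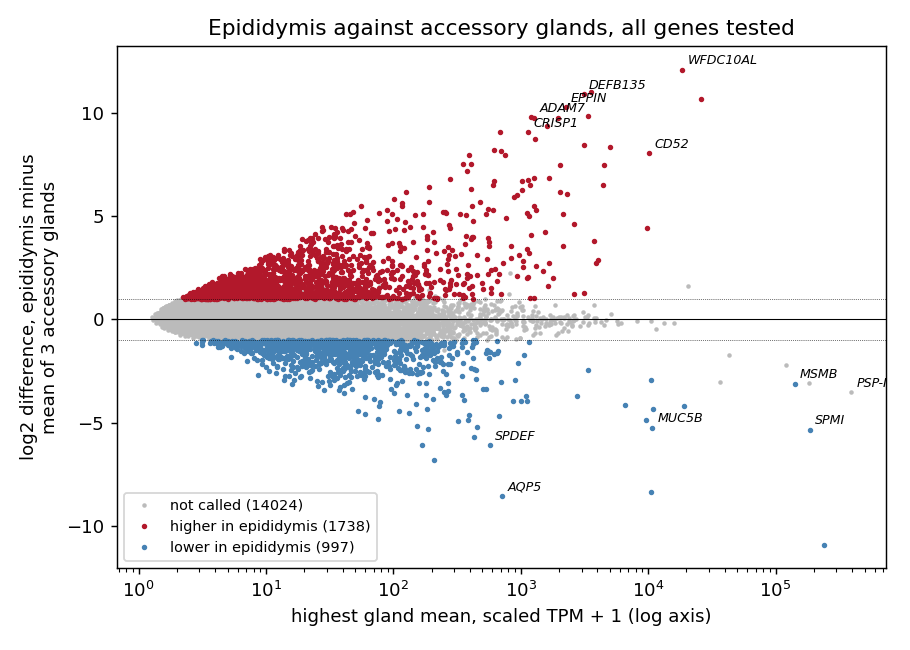
Log2 difference (epididymis minus the mean of the 3 accessory glands) against the highest gland mean in scaled TPM + 1 on a log axis, 1 point per gene tested. Red points are the 1738 genes called higher, blue points the 997 called lower, and dotted lines mark a difference of 1. WFDC10AL reaches 12.11 at the top, and AQP5 lies at -8.55.

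Against single glands, 1656 genes (9.88%) were higher and 1264 (7.54%) lower in the epididymis than in the vesicular gland. Against the prostate gland, 1890 (11.3%) were higher and 1271 (7.58%) lower, and without BMI prostate replicate 2 these were 2061 and 1402. Against the bulbourethral gland, 2269 (13.5%) were higher and 1520 (9.07%) lower. In all 3 contrasts at once, 1016 genes (6.06%) were higher and 267 (1.59%) lower. The 3 contrasts share the epididymis libraries.

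The 3 protease inhibitors that served as markers of the epididymis had high levels in its 6 libraries. EPPIN, which coats sperm and binds semenogelin in men, had levels of 1283, 1027 and 6823 scaled TPM in the BMI and 3072, 741 and 559 in the DSE epididymis libraries. In the accessory glands it reached at most 8.75, in a vesicular gland library. The difference was 10.28 ± 0.40 (SE, limma adjusted p = 3.01e-15), and the groups did not overlap. EPPIN, and below DEFB135, DEFB112, ADAM7, CRISP1 and CES5A, reached 1 TPM in at most 1 accessory gland library and passed the filter on low values only through the epididymis. Such genes could hardly fail to differ, so their differences and p-values describe them and support nothing further. With no filter, over 33508 genes, these 6 were also called higher. WFDC10A, a small protein with a whey acidic protein core, had 820, 2177 and 5290 scaled TPM in BMI and 947, 685 and 1889 in DSE, and at most 15.8 elsewhere. Its difference was 9.77 ± 0.40 (limma adjusted p = 7.70e-15). SPINK14, a Kazal-type inhibitor, had 2285, 1498 and 10956 scaled TPM in BMI and 394, 2713 and 1000 in DSE. It was also present in the vesicular gland, at 45.0 to 175 scaled TPM, and was at most 0.105 in the bulbourethral gland. In the prostate gland it was 39.5 in BMI replicate 2 and at most 0.0714 in the other 5 libraries. Its difference from the vesicular gland was 4.66 (limma adjusted p = 1.43e-05) and from the mean of the accessory glands 8.47 ± 0.56 (limma adjusted p = 5.15e-11). These 3 defining markers lay above every accessory gland library in all 6 epididymis libraries.

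**Figure D3:**
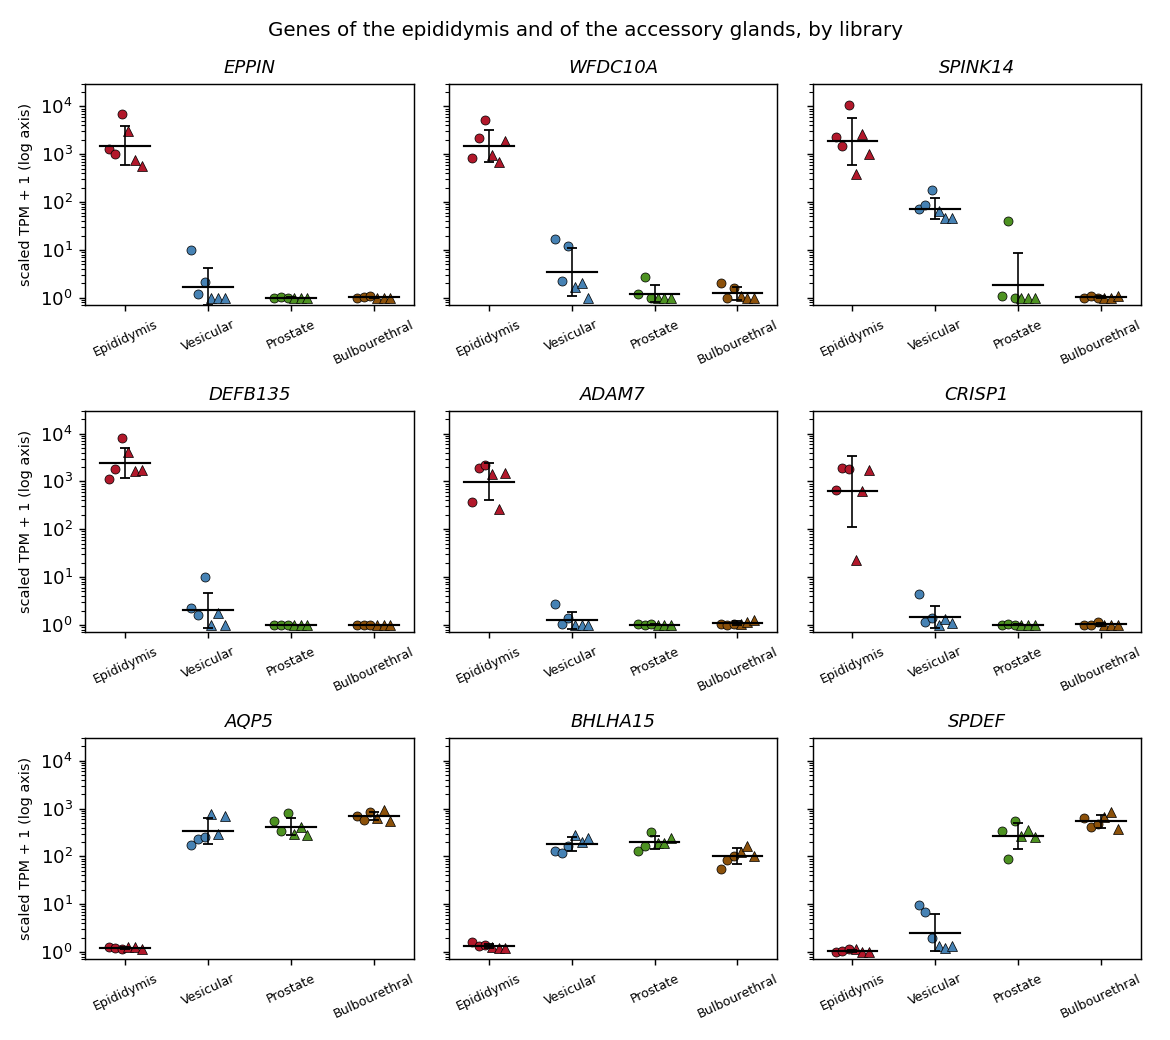
Levels in scaled TPM + 1 on a log axis for 9 genes in the 24 libraries, by gland. Circles are BMI and triangles DSE libraries, horizontal lines are means of the log values and whiskers 1 SD (n = 6 libraries each). EPPIN, WFDC10A, SPINK14, DEFB135, ADAM7 and CRISP1 lie higher in all 6 epididymis libraries than in the accessory glands, and AQP5, BHLHA15 and SPDEF lie lower in all 6.

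In the deposited annotation (Sscrofa11.1) EPPIN lies on chromosome 17 at 47851802 to 47859446 on the minus strand, and WFDC10A at 47888613 to 47901430 on the plus strand. WFDC8 and WFDC10AL lie between them, the latter at 47886034 to 47888974 on the minus strand. WFDC10AL, whose name comes from the RefSeq annotation, had the largest difference of all genes with a symbol, 12.11 ± 0.67 (limma adjusted p = 2.04e-12). Its levels were 13714, 11260 and 61392 scaled TPM in BMI and 982, 11730 and 12505 in DSE, which placed it among the most abundant genes of the epididymis. WFDC10A and WFDC10AL overlap on opposite strands, and the library kit named in the methods does not mark strand, so their reads cannot be told apart with certainty. The same limit holds for 37 of the 82 genes named by rule, SPINK14 and CD52 among them.

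The 250 bases before the annotated starts of EPPIN, SPINK14, ADAM7 and DEFB135 are shown because these genes were higher in all 6 epididymis libraries than in the 18 accessory gland libraries. The starts are the ones farthest upstream in the Ensembl, Iso-seq and RefSeq models, and bases are from the RefSeq copy of Sscrofa11.1, read 5′ to 3′ on the gene's strand. Capitals mark the letters AGAACA or, on the other strand, TGTTCT, a known half-site of steroid hormone receptors.
EPPIN (chr17:47859447-47859696, minus strand): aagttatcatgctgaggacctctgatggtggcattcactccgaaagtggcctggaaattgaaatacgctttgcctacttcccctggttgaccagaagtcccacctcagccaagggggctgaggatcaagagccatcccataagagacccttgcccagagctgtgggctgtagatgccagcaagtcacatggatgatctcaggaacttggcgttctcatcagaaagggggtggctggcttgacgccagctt
SPINK14 (chr2:149414365-149414614, plus strand): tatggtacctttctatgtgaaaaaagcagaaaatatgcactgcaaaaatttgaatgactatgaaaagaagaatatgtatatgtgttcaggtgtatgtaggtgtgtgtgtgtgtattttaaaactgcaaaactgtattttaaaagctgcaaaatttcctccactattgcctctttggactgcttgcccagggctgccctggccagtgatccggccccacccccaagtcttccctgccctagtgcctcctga
ADAM7 (chr14:8482667-8482916, plus strand): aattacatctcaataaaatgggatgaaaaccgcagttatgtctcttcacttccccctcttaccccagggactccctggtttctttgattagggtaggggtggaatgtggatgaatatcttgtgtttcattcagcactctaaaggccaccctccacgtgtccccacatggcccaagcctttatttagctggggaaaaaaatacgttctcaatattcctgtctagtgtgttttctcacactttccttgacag
DEFB135 (chr14:15142868-15143117, plus strand): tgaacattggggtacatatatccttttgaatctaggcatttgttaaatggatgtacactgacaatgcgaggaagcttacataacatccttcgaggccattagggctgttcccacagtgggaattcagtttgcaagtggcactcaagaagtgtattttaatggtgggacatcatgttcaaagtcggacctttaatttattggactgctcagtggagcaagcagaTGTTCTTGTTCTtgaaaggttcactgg

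The DEFB135 window held this half-site at 2 places, 27 and 21 bases before the start, and the other 3 windows held none. Over both strands, AGAACA was found in 10.7% of the windows of 14768 tested genes with one, in 12.8% of 1513 genes called higher and in 9.50% of 884 called lower. TATAAA, the letters of a TATA box, was found in 8.34%, 8.86% and 9.62% of them. These matches describe letters and were not tested.

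The lists that follow count only members that passed the filter on low values. A member that passed only through the epididymis, with 1 TPM in fewer than 3 accessory gland libraries, could hardly fail to differ, so the counts and medians describe the lists and support nothing further. They are to be read against the 10.4% higher and 5.95% lower over all genes tested. Of 34 protease inhibitors with a gene, 10 lay below the filter. Of the 24 protease inhibitors tested, 13 were called higher and 2 lower, with a median difference of 1.47 against 0.02 over all genes. Of the 13, 6 passed the filter only through the epididymis. SPINK2, another Kazal-type inhibitor, had 126 to 1535 scaled TPM in the epididymis and at most 57.8 elsewhere (6.49 ± 0.45, limma adjusted p = 1.07e-10). WFDC11 and WFDC8, neighbours of EPPIN, were listed at a median of 0 scaled TPM in the prostate and bulbourethral glands and lay above all accessory libraries in each epididymis library. SERPINE2 and SPINT1, inhibitors of trypsin-like proteases, were the 2 called lower, and neither was with TPM as deposited.

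Of 18 genes of the beta-defensin list, 17 were called higher and 1 lower, with a median difference of 5.51. Of the 17, 12 passed the filter only through the epididymis, and 2 further genes of the list lay below it. Beta-defensins are small cationic peptides that kill microbes, and several of them coat sperm. The 17 lie in groups on chromosome 17 (7 genes within 0.203 Mb), chromosome 7 (5 genes within 0.0741 Mb), chromosome 14 (3 genes within 0.0698 Mb) and chromosome 15 (2 genes, SPAG11B and a copy of DEFB1). DEFB135 had 1147, 1845 and 8130 scaled TPM in BMI and 4194, 1634 and 1727 in DSE, and was listed at 0 in every prostate and bulbourethral library. Its difference was 10.91 ± 0.35 (limma adjusted p = 1.26e-16). DEFB112 had 401 to 1862 scaled TPM in the epididymis and at most 1.68 elsewhere (9.07 ± 0.22, limma adjusted p = 3.14e-18). DEFB110 was listed at 0 in all 18 accessory gland libraries and had 13.2 to 1866 in the epididymis. DEFB115 was shared with the vesicular gland, where its median was 221 scaled TPM against 651 in the epididymis and 0 in the prostate and bulbourethral glands. The gene called lower is the other copy of DEFB1, on an unplaced scaffold, with 0 to 31.8 scaled TPM in the epididymis and a median of 6893 in the vesicular gland. The 2 copies share a symbol, and reads may be split between them.

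Of 44 sperm-coating and luminal proteins, 31 were called higher and 1 lower, with a median difference of 2.74. Of the 31, 14 passed the filter only through the epididymis, and 4 further genes lay below it. ADAM7, a membrane protein passed from the epididymis to sperm, had 375, 1926 and 2166 scaled TPM in BMI and 1428, 268 and 1486 in DSE, and at most 1.74 elsewhere (9.78 ± 0.32, limma adjusted p = 1.26e-16). When only Ensembl transcripts were summed, its difference was 0.89 and it was not called. CRISP1, which binds sperm and takes part in gamete fusion, had 659, 1912 and 1853 scaled TPM in BMI and 21.8, 629 and 1707 in DSE (9.08 ± 0.55, limma adjusted p = 1.01e-11). CES5A, a carboxylesterase of the epididymal lumen, was similarly low in DSE replicate 1, at 6.88 scaled TPM, and had 281 to 1668 in the other 5 libraries (8.15 ± 0.61, limma adjusted p = 3.84e-10). CD52, a peptide anchored by glycolipid that is transferred to sperm, had 6909, 1609 and 40711 scaled TPM in BMI and 7.18, 8555 and 3473 in DSE. Its level in DSE replicate 1 lay below the vesicular gland range of 18.7 to 161, so the groups overlapped (8.05 ± 1.01, limma adjusted p = 1.00e-06). NPC2, a cholesterol-binding protein of the lumen, had 171 to 32865 scaled TPM in the epididymis and a median of 990 in the vesicular gland. CRISP3, a relative of CRISP1, was the member called lower and had a median of 681 scaled TPM in the bulbourethral gland. CLPSL2, a colipase-like protein outside the lists, had 523 to 3020 scaled TPM in the epididymis and at most 0.193 elsewhere.

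Of the 44 list members, 27 were called higher than in the vesicular gland (9.88% of all genes tested), 34 than in the prostate (11.3%) and 33 than in the bulbourethral gland (13.5%). Without BMI prostate replicate 2, the count against the prostate was 35. The next genes were chosen after their values were seen. EDDM3B and RNASE12, ribonuclease-like proteins, and LTF, the iron-binding lactoferrin, had medians of 1214, 685 and 957 scaled TPM in the epididymis. Their medians were 263, 678 and 281 in the vesicular gland and at most 10.9 in the prostate and bulbourethral glands. Against the vesicular gland, EDDM3B differed by 2.60 (limma adjusted p = 0.014), while RNASE12 differed by 0.16 (limma adjusted p = 0.91) and LTF by 1.40 (limma adjusted p = 0.21).

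**Figure D4:**
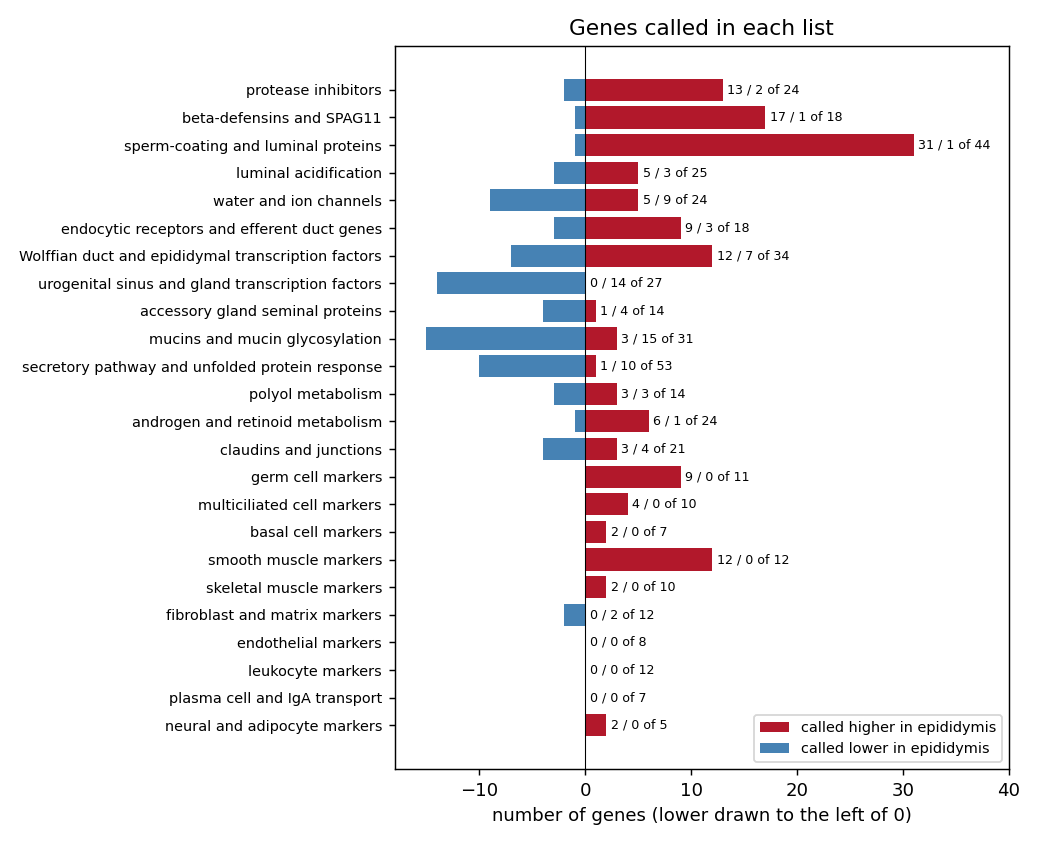
Number of genes called higher (red, right of 0) and lower (blue, left of 0) in the epididymis, for each of the 24 lists. The text gives higher, lower and tested genes. The bars are longest to the right for sperm-coating and luminal proteins (31) and to the left for mucins and mucin glycosylation (15).

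The levels of many of these genes varied widely among the 6 epididymis libraries. Of the genes called higher, 144 of 1738 spanned at least 5 on the log2 scale between the lowest and highest epididymis library, as 222 of all 16759 genes tested did. Genes low in the epididymis have little room for such a span. The highest of the 6 was DSE replicate 1 for 54 of the 144, BMI replicate 2 for 41 and BMI replicate 3 for 25. Over all 1738 genes called higher, these 3 libraries were the highest for 419, 359 and 459. The lowest of the 6 was DSE replicate 2 for 45 of the 144, DSE replicate 1 for 38 and BMI replicate 1 for 34. The following genes were chosen after their values were seen. RNASE10, LCN8 and GPX5, which in rodents belong to the initial segment and caput next to the testis, had 7133, 6705 and 5854 scaled TPM in BMI replicate 2. In the other 5 libraries, RNASE10 had at most 20.5 and LCN8 at most 12.3, whereas GPX5, a secreted peroxidase, had 947 in DSE replicate 1 and 4.33 to 111 in the rest. LCN10, a lipocalin, had 1459 scaled TPM in DSE replicate 1, 141 in BMI replicate 2 and at most 28.1 in the others. CLU, a chaperone of the lumen, had 19845 scaled TPM in DSE replicate 1 and 165 to 1888 elsewhere. ELSPBP1 and BSPH1, sperm-binding proteins, had 1998 and 1814 scaled TPM in DSE replicate 1 and at most 175 and 14.5 in the other 5. The libraries high in these genes were low in CD52, with 1609 in BMI replicate 2 and 7.18 in DSE replicate 1, the lowest levels of the 6. Other genes were high in BMI replicate 2 and DSE replicate 3 and low in DSE replicate 1. MAN2B2 had 6049, 7763 and 4.66 scaled TPM in these libraries, SPINT4 4899, 7922 and 0, and DEFB129 2645, 3334 and 0.828. CD52 was at 3473 in DSE replicate 3. BMI replicate 3, with the highest CD52, also had the highest EPPIN, WFDC10A and SPINK14. The labels name no part of the duct, and its part in these values was not tested. DSE replicate 1 also held 7.46% of its TPM in genes without an Ensembl identifier of their own (Iso-seq or fused models), against 1.68% to 1.95% in the other 5 epididymis libraries, and the part of this in its values was not tested.

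**Figure D5:**
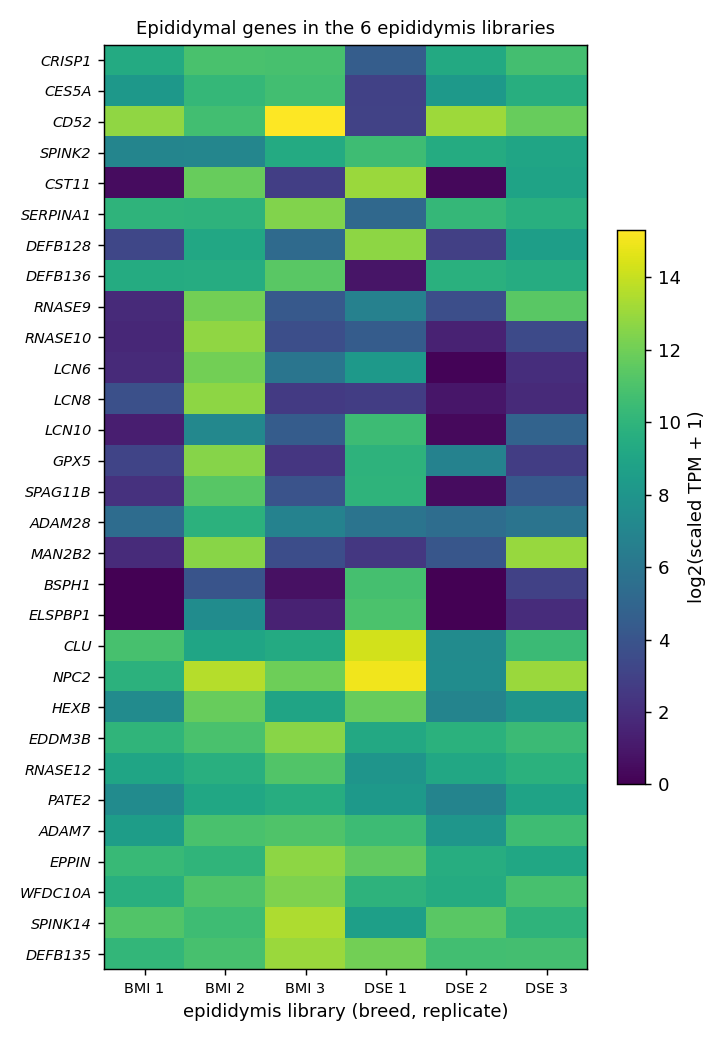
Levels as log2(scaled TPM + 1) of 30 epididymal genes in the 6 epididymis libraries, labelled by breed and replicate. Dark cells are low and yellow cells high. Genes at the bottom, EPPIN to DEFB135, are high in all 6 libraries, whereas RNASE10 and LCN8 are highest in BMI 2 and ELSPBP1 and BSPH1 in DSE 1.

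Transcription factors differed between the glands. Of 34 Wolffian duct and epididymal factors, 12 were called higher and 7 lower, with a median difference of 0.22. PAX2, required for the Wolffian duct, had 84.1, 178 and 217 scaled TPM in BMI and 110, 60.3 and 154 in DSE. It had 50.9 to 141 in the vesicular gland, at most 0.0458 in 5 prostate libraries and at most 0.0235 in the bulbourethral gland. Its difference from the vesicular gland was 0.53 (limma adjusted p = 0.52). From the prostate gland the difference was 6.02 with BMI replicate 2 and 6.90 without it. EMX2, another factor of this duct, had 26.4 to 49.2 scaled TPM in the epididymis, a median of 71.2 in the vesicular gland and medians of 0.0568 in the prostate and 0.0828 in the bulbourethral gland. Of the HOX genes, which pattern the body axis, HOXB8, HOXB9, HOXC8, HOXC9, HOXC10, HOXD8 and HOXD9 were called higher, and HOXA11, HOXA13, HOXD11, HOXD12 and HOXD13 lower. Of these, HOXC8, HOXC9 and HOXC10 passed the filter only through the epididymis. HOXD13 was at most 0.177 scaled TPM in the epididymis, 3.48 to 7.05 in the vesicular gland and 31.5 to 69.7 in the other glands (-4.61 ± 0.13, limma adjusted p = 2.37e-17). ELF5, an epithelial factor, was called lower, with 0.101 to 2.24 scaled TPM in the epididymis and 315 to 543 in the vesicular gland.

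Of 27 factors of the urogenital sinus and glands, 14 were called lower and 0 higher, with a median difference of -1.13. By gland, the median was -0.029 against the vesicular, -1.26 against the prostate and -1.17 against the bulbourethral gland. Of the 27, 6 were called lower than each gland and 0 higher. Of the 14, 8 reached 1 TPM in none of the epididymis libraries. With TPM as deposited, 13 were lower and 1 was higher. Without any 1 of BMI epididymis replicates 1 and 3 and DSE replicate 2, 1 was also called higher. SPDEF, a factor of secretory and goblet cells, had 0 to 0.143 scaled TPM in the epididymis, 0.231 to 8.55 in the vesicular gland, 86.3 to 555 in the prostate and 381 to 829 in the bulbourethral gland (-6.11 ± 0.36, limma adjusted p = 7.26e-12, and -1.29 against the vesicular gland alone). FOXA1, a pioneer factor of androgen-responsive glands, was at most 0.226 in the epididymis and at least 4.58 in every accessory library (-4.82 ± 0.18, limma adjusted p = 1.95e-15). HOXB13 was listed at 0 in all 6 epididymis libraries and had a median of 260 in the prostate gland.

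Among the genes called lower, AQP5 stood first among those with a symbol. This apical water channel of glands had 0.163 to 0.301 scaled TPM in the epididymis. It had 171 to 759 in the vesicular gland, 279 to 815 in the prostate and 560 to 915 in the bulbourethral gland. The difference was -8.55 ± 0.25 (limma adjusted p = 2.80e-17), with all 6 epididymis libraries below all 18 others. AQP5, SPDEF, FOXA1, HOXD13 and HSD17B6 stayed below 1 TPM in all 6 epididymis libraries. They passed the filter on low values only through the accessory glands, so their differences and p-values describe them and support nothing further. BHLHA15, also called MIST1, a factor of professional secretory cells, had 0.221 to 0.610 scaled TPM in the epididymis and 53.4 to 322 in the accessory glands (-6.82 ± 0.18, limma adjusted p = 9.20e-18). Of 53 secretory pathway genes tested, 10 were called lower, 1 higher and 42 neither, with a median difference of -0.22. With TPM as deposited, 5 were lower and 14 higher, so the direction of this list depends on the scaling. Without DSE epididymis replicate 2, 8 were lower and 4 higher, and without BMI or DSE epididymis replicate 1, 10 were lower and 2 higher. CREB3L1, a factor of the secretory apparatus, was lower than in each gland, at 7.95 to 38.7 scaled TPM against 58.7 to 656 (-3.40 ± 0.26, limma adjusted p = 4.48e-10). XBP1, a factor of the unfolded protein response, had 99.8 to 192 scaled TPM in the epididymis and medians of 344 to 563 in the accessory glands. CREB3L4, a related factor, was lower by 2.66, and higher by 1.23 when only Ensembl transcripts were summed.

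Of 14 accessory gland seminal proteins, 4 were called lower and 1, ACP3, higher. Without BMI epididymis replicate 1, 6 were lower and 2 higher, without BMI replicate 2 or 3, 4 were lower and 0 higher, and without DSE epididymis replicate 2, 5 were lower and 2 higher. Without BMI prostate replicate 2, 6 were lower and 1 higher. SPMI, the spermadhesin also named AQN-3, had 0.446 to 27.0 scaled TPM in the epididymis and 75594 to 352564 in the vesicular gland (-15.04 against this gland, limma adjusted p = 1.0e-06). PSP-I, the most abundant gene of the vesicular gland, had 1383, 13.4 and 0.240 scaled TPM in the BMI and 7.36, 99.7 and 42.8 in the DSE epididymis libraries. Against the mean of the 3 glands it was not called (limma adjusted p = 0.080), and it was called without BMI prostate replicate 2 (-2.71, limma adjusted p = 0.023) or without BMI epididymis replicate 1 (-4.53, limma adjusted p = 0.035). Of 31 genes of mucins and mucin glycosylation, 15 were called lower and 3 higher, with a median difference of -0.997. By gland, this median was -0.176 against the vesicular, -0.846 against the prostate and -1.75 against the bulbourethral gland. Of the 31, 2 were called lower than each gland and 1 higher. MUC5B, a gel-forming mucin, had 1.05 to 7.62 scaled TPM in the epididymis and 4067 to 16637 in the bulbourethral gland. TFF3, a peptide that goes with mucus, had at most 0.670 in the epididymis and 6011 to 15430 in the bulbourethral gland. MUC15, a membrane mucin, was called higher, with a median of 48.7 scaled TPM in the epididymis and 33.1 in the vesicular gland.

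Of 24 water and ion channels, 5 were called higher and 9 lower. AQP3, which carries water and glycerol, had 0.323 to 4.65 scaled TPM in the epididymis and at least 7.59 in all accessory libraries (-5.33 ± 0.46, limma adjusted p = 4.60e-09). SLC12A2, the chloride importer of fluid-secreting cells, had 0.847 to 3.82 scaled TPM in the epididymis, 3.46 to 8.81 in the vesicular gland and 105 to 474 in the others. AQP9, the epididymal aquaglyceroporin, was higher by 2.19, at 0.302 to 17.9 scaled TPM, and KCNE1, a potassium channel subunit, by 3.09. Of 25 genes of luminal acidification, 5 were called higher and 3 lower, or 9 and 2 with TPM as deposited. SLC26A3 and ATP6V1C2, an anion exchanger and a proton pump subunit, were called higher than the mean of the glands but had higher medians in the vesicular gland, 176 and 153 scaled TPM against 44.6 and 37.0. SLC26A3 was no longer called without BMI epididymis replicate 3 (1.80, limma adjusted p = 0.055) or DSE replicate 2 (1.75, limma adjusted p = 0.058). ATP6V1B1 and FOXI1, which mark proton-secreting cells, had medians of 0.0234 and 0.0739 scaled TPM in the epididymis and were not called. Of 18 endocytic and efferent duct genes, 9 were called higher and 3 lower, among them the uptake receptor adaptor DAB2 (40.3 to 168 scaled TPM against at most 19.3, difference 2.56 ± 0.27, limma adjusted p = 7.31e-08) and the carnitine carrier SLC22A5 (11.4 to 69.3 against at most 4.56, difference 3.0 ± 0.25, limma adjusted p = 1.70e-09).

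Androgen and retinoid metabolism had 6 genes called higher and 1 lower of 24, or 10 and 1 with TPM as deposited. With size factors, 3 were lower without BMI epididymis replicate 1 and 2 lower without any 1 of 9 other libraries. The 9 are DSE epididymis replicates 2 and 3, BMI vesicular replicate 2, DSE vesicular replicate 3, BMI prostate replicate 3, DSE prostate replicates 1 and 2 and DSE bulbourethral replicates 1 and 2. SRD5A2, which makes dihydrotestosterone, had 18.1, 180 and 39.5 scaled TPM in BMI and 409, 5.73 and 20.4 in DSE, against at most 6.46 elsewhere (3.57 ± 0.55, limma adjusted p = 1.59e-05). HSD17B6, which acts in androgen breakdown, was at most 0.768 in the epididymis and had 38.6 to 104 in the prostate gland (-3.98 ± 0.24, limma adjusted p = 8.21e-12). ALDH1A1 and CRABP1, of the retinoid pathway, were higher by 3.55 and 4.03. Polyol metabolism had 3 genes called in each direction of 14, or 5 higher and 1 lower with TPM as deposited. SORD, which forms fructose from sorbitol, was at 0.684 to 5.19 scaled TPM in the epididymis and 138 to 212 in the vesicular gland. ISYNA1, the enzyme of inositol synthesis, was at 33.5 to 251 scaled TPM in the epididymis and at most 21.6 elsewhere (2.81 ± 0.31, limma adjusted p = 1.68e-07). Of 21 claudins and junction genes, 3 were called higher and 4 lower, or 5 and 3 without DSE epididymis replicate 1 and 4 and 2 with TPM as deposited, and CLDN11, of tight junctions, was higher by 3.41 ± 0.25 (limma adjusted p = 2.59e-10).

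Cell type markers moved with the glands in the following way. All 12 smooth muscle markers were called higher in the epididymis, with summed levels of 1865 to 16473 scaled TPM against 193 to 584 in the bulbourethral gland. In the vesicular and prostate glands the sums were 1076 to 6251 and 321 to 3829. MYH11, the smooth muscle myosin, had 283 to 2036 scaled TPM in the epididymis and a difference of 1.42 from the vesicular gland (limma adjusted p = 0.059). Against the vesicular gland alone, 2 of the 12 smooth muscle markers were called higher. Of 20 germ cell markers, 9 lay below the filter, and of the other 11, 9 were called higher and 0 lower. Of the 9 called, 8 passed the filter only through the epididymis libraries. The markers had summed levels of 15.9 to 816 scaled TPM in the epididymis and 8.40 to 17.3 in the accessory glands. Without BMI epididymis replicate 2, 5 germ cell markers were called. PRM1, a protamine of sperm heads, had 45.1, 515 and 15.7 scaled TPM in BMI and 114, 0.607 and 31.8 in DSE. Of 10 skeletal muscle markers 2 were called higher, TNNC2 and CKM, with sums of 8.91 to 1029 scaled TPM in the epididymis, 2.47 to 33.8 in the vesicular gland and 2.52 to 1848 in the bulbourethral gland. Of 10 multiciliated markers 4 were called higher, 3 of which passed the filter only through the epididymis, and 2 without BMI epididymis replicate 3. KRT15 and CDH3, of basal cells, were called higher of 7 tested. The summed basal markers, however, overlapped, at 71.7 to 158 scaled TPM in the epididymis and 64.7 to 159 in the vesicular gland. The sums were 38.1 to 53.1 in the prostate and 75.9 to 267 in the bulbourethral gland. Of 12 fibroblast markers 2 were called lower, FN1 and LUM, and 0 higher, whereas with TPM as deposited 1 was lower and 6 were higher. FN1 had 6.12 to 211 scaled TPM in the epididymis and 1982 to 5029 in the vesicular gland. It had 1429 in BMI prostate replicate 2, 6.90 to 16.3 in the other 5 prostate libraries and 10.3 to 109 in the bulbourethral gland. Without BMI epididymis replicate 3, 2 fibroblast markers were lower and 2 higher, and without BMI replicate 2, 1 was lower and 0 higher. Of 5 neural and adipocyte markers 2 were called higher, 0 without BMI epididymis replicate 1, DSE replicate 2 or DSE replicate 3, and 1 without any 1 of 12 other libraries. Single libraries also decided the calls of FN1, lost without BMI epididymis replicate 2 (-2.05), and TNNC2, lost without any 1 of 12 libraries. None of the 8 endothelial, 12 leukocyte and 7 plasma cell markers was called by limma, but 1 leukocyte marker was called higher without DSE epididymis replicate 1 and 1 plasma cell marker lower without BMI epididymis replicate 2. With TPM as deposited, 2 leukocyte markers and 1 plasma cell marker were called higher. In bulk tissue, fewer cells of a type and less RNA per cell cannot be told apart, and the part of these markers in the results was not tested.

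The 5 genes with a symbol that were most abundant in the epididymis by mean were WFDC10AL, CD52, NPC2 and the mitochondrial genes ATP6 and COX3. ATP6 and COX3 were not called, with differences of -0.16 and -0.20 (limma adjusted p = 0.74 and 0.66), which turned to 0.45 and 0.42 with TPM as deposited. The 2 most abundant genes of each accessory gland by mean were PSP-I and SPMI in the vesicular gland, MSMB and PSP-I in the prostate gland, the latter through BMI replicate 2 alone, and ATP6 and AGR2 in the bulbourethral gland.

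Iso-seq, in which full-length reads were counted without replicates in 1 library per breed and gland, gave a second readout with 231413 reads in the DSE and 458697 in the BMI epididymis library. Of 1426 genes called higher in RNA-seq that had full-length reads, 535 (37.5%) had more reads, relative to library totals, in both epididymis libraries than in all 6 accessory gland libraries, and 6 had fewer. Of all 14305 genes tested that had reads, 8.90% had more and 5.54% had fewer (7.6% and 4.73% of all genes tested). Of 918 genes called lower with reads, 205 had fewer in both epididymis libraries and 3 had more. ADAM7 had 9155 reads in BMI and 554 in DSE epididymis, against at most 5 reads elsewhere. EPPIN had 46 and 170 reads and 0 in each accessory gland library. AQP5 had 0 of 458697 reads in BMI and 0 of 231413 in DSE epididymis, each of which allows up to 3 reads, and 9 to 145 in the accessory glands. CD52 had 0 reads in both epididymis libraries despite its high TPM. SPINK14 had 3 reads in DSE epididymis and 0 in BMI, and 1 in each vesicular gland library. WFDC10A had 2 reads in BMI and 4 in DSE. These counts are too few to compare glands for SPINK14 and WFDC10A, and these limits cover counting error only.

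Differences between epididymis and accessory glands that depended on breed were called for 15 genes (0.0895% of those tested), while 1362 had an unadjusted p below 0.05. MPV17L had medians of 15.5 scaled TPM in BMI and 0.0372 in DSE epididymis libraries (interaction of DSE minus BMI -4.13 ± 0.35, limma adjusted p = 4.40e-06). CES1, a carboxylesterase, had medians of 0 and 17.1 (4.87 ± 0.76, limma adjusted p = 0.0096), and NPG3, a protegrin, 10.3 and 0 (-2.91 ± 0.41, limma adjusted p = 0.0032). NPG3 passed the filter only through the epididymis. These genes were chosen after their values were seen. The count ran from 4 without BMI epididymis replicate 3 to 98 without DSE epididymis replicate 3.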

How the data were processed

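RNA-seq values are TPM that the authors obtained with Salmon from a merged Ensembl and Iso-seq annotation of Sscrofa11.1 and deposited per transcript. The methods state poly-T purification and the labels rRNA depletion. For Iso-seq, each isoform has a deposited raw count of its full-length reads. The deposited TPM carry no read depth, and the read totals and integrity values of the study's supplement were not used here. The miRNA table was not used.

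All 133722 transcripts were summed to 35552 genes by the gene of the annotation, and divided by median-of-ratios size factors over 15344 genes above 0 in all 24 libraries (0.409 to 1.75). Symbols come from the annotation, from a gene table and from RefSeq models on the same strand. Genes reaching 1 TPM in 3 or more libraries entered a fit with limma 3.58.1 (R 4.3.3, trend, pseudocount 1) on gland and breed. The fit was first tested on simulated data. The exact test used scipy 1.17.1. Genes were named by rule: the 10 largest called differences in each direction with separated groups and at least 10 scaled TPM, up to 4 called genes of each list, the 3 markers, and the most abundant genes. Other genes in the text were chosen after their values were seen. Genes without a symbol were not named. Members and lists were chosen with earlier results of these data known. Of 9940 annotated introns, 95.9% begin with GT and end with AG in the reference, so coordinates were taken as the same build. Alternatives were other scaling, pseudocount, filters, no trend, a replicate block, Ensembl transcripts alone and leaving out libraries. Testis libraries entered no test. Results for some genes are not reported here.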

Additional observations from a re-analysis of the deposited data

Results flagged for a closer look

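Among the named genes, 11 had 1 epididymis library far from the other 5 on the log scale, by a test that chance meets in about 5% of groups of 6. DSE replicate 1 was the lowest for CRISP1 (21.8 scaled TPM), CES5A (6.88) and AGR2 (0.545), and the highest for DAB2 (168), CLDN11 (38.8) and ERN2 (0.288). This library also held 7.46% of its TPM in genes without an Ensembl identifier of their own, against 1.68% to 1.95% in the other 5, and the part of this in its values was not tested. BMI replicate 3 was the highest for DEFB112 (1862) and the lowest for KCNQ1 (0.274). BMI replicate 1 was the highest for AQN-1 (66.3), BMI replicate 2 for SLC5A8 (0.151) and DSE replicate 3 for PITX1 (1.70). The difference between the epididymis and the accessory glands depended on breed for 15 genes by the interaction term.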

How the results depend on the processing

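The counts of genes higher and lower in the epididymis were 3466 and 478 with TPM as deposited, 1085 and 659 with Ensembl transcripts alone, and 2652 higher with a pseudocount of 0.1. The counts of genes higher and lower than each accessory gland were 1956 and 85 with TPM as deposited and 588 and 173 with Ensembl transcripts alone, where 12298 genes were tested. The count for breed was 24 with TPM as deposited, 6 with a pseudocount of 0.1, 25 with no filter, 4 with at least 5 TPM in 3 libraries, and 31 without BMI prostate replicate 2 and DSE epididymis replicate 1, an alternative chosen after seeing the data. Leaving out 1 library at a time gave 1653 to 1780 higher, 961 to 1061 lower, 942 to 1049 higher than each gland and 260 to 287 lower than each gland. For breed it gave 4 to 98 genes, with 4 without BMI epididymis replicate 3, 23 without BMI replicate 2, 31 without DSE replicate 1, 64 without BMI replicate 1 and 98 without DSE replicate 3. The replicate numbers were not taken to pair the libraries, because the boar behind each library is not given. The authors mention pairing but do not link library numbers to boars. Over 36 pairs of same-numbered libraries, deviations correlated at -0.27 to 0.33 and 15 were over 0.1. Within a breed, all 3 numbers were over 0.1 for DSE epididymis with vesicular gland (0.23 to 0.33) and for BMI vesicular with bulbourethral gland (0.10 to 0.26). Libraries with different numbers were not compared, so these correlations cannot decide whether same-numbered libraries share a boar. If they do, the 24 libraries are not independent. With a replicate block, 1736 genes were higher, 1000 lower, 1014 higher than each gland, 266 lower than each gland and 15 differed by breed. Directions turned for CREB3L4 (1.23 with Ensembl transcripts alone), ATP6 (0.45 with TPM as deposited, and -0.36 to 0.0032 over single libraries left out, the last without BMI epididymis replicate 2) and COX3 (0.42 with TPM as deposited). With Ensembl transcripts alone the calls of 5 named genes were lost, among them ADAM7 (0.89), ATP6V1C2 (0.998), SORD (-0.88) and TNNC2 (1.94). That of FN1 was lost with TPM as deposited (-1.86), those of 2 genes with no filter, TNNC2 (1.93) among them, and that of 1 gene with a pseudocount of 0.1. The causes were not tested. The deposited TPM carry no counts, so low values are given without counting errors.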
